A study of Arabidopsis thaliana with 6 samples.

Results

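The genes described here take up nitrate and build it into amino acids. They are 6 of the 22810 probe sets on the Affymetrix ATH1 array, 1 for each of 6 genes of Arabidopsis thaliana: AT3G21670 (NPF6.4, probe set 258181_at), AT1G08090 (NRT2.1, 260623_at), AT1G77760 (NIA1, 259681_at), AT1G37130 (NIA2, 261979_at), AT5G37600 (GLN1;1, 249581_at) and AT3G47340 (ASN1, 252415_at). The probe annotation used here lists 258181_at. For the other 5 the pairing of probe set and gene is that of the selection itself. The genes were chosen by their function and by the log2 signals of these same 6 arrays, across light and CO2, so their levels and differences are a description and carry no p-value.

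The study was set up around stomatal number and CO2. It sampled rosette centres (leaves no later than leaf 11) of Col-0, the standard laboratory accession, at growth stages 3.20 to 3.50. Plants received low, medium or high light in high CO2 or in ambient CO2, and each of the 6 combinations was measured on 1 array. All groups shared compost, the insecticide Intercept, a temperature of 21 degrees C and days with 10 light hours and 14 dark hours. No source used here gives the light or CO2 amounts or the hour of harvest. For 1 array, high light in high CO2, the title says high CO2 but the atmosphere entry says normal. The title was followed.

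Nitrate enters plant cells through transporters of the NRT2 and NPF families. Nitrate reductase turns it into nitrite, nitrite reductase makes ammonium, and glutamine synthetase binds the ammonium to glutamate. Asparagine synthetase moves the amide nitrogen on to asparagine, a storage and transport form. In leaves these steps draw reducing power and carbon skeletons from photosynthesis, and the genes are known to respond to nitrate, light, sugars and the time of day.

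Values are MAS5 signals, 1 per probe set and array, on a linear scale. All 6 arrays had a 2% trimmed mean signal of 100 and medians between 40.7 and 43.2. Because no combination was repeated, the standard errors (SE) come from a limma fit of log2 signal that is additive in light and CO2, with 2 residual degrees of freedom, and the number of arrays limits the precision. Of the 22746 probe sets for genes, 13648 with a mean signal of at least 26.65 were fitted, among them 5 of the 6 members; NRT2.1 was too dim. A probe set is said to pass where its Benjamini-Hochberg adjusted p in that fit is below 0.05. Signals of different probe sets cannot be set against each other, so levels are compared within a gene.

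The tissue label was checked against marker genes. The annotation pairs 5 leaf markers, all photosynthetic genes, with a probe set. They had a summed signal between 16559.3 and 19676.8 on the high-CO2 arrays and between 15086.6 and 19623.8 on the ambient arrays. This sum was lowest in high light at both CO2 levels. It was 16559.3 in high and 19519.5 in low light with high CO2, and 15086.6 and 17191.9 with ambient CO2. The median high minus low light difference of the 5 leaf markers was -0.21 on the log2 scale, and none of them passed. For root markers it pairs 3, PYK10, EXPA7 and EXPA18. Their summed signal lay between 63.3 and 102.3 in high CO2 and between 75.5 and 115.3 in ambient CO2. Their sum was highest in low light and lowest in high light at both CO2 levels, 63.3 in high and 102.3 in low light with high CO2 and 75.5 in high and 115.3 in low light with ambient CO2. PYK10 had a high minus low light difference of -1.15 ± 0.29 on the log2 scale (limma adjusted p = 0.0528). EXPA18, under 26.65 on 2 arrays, had -0.25 ± 0.36, and with ambient CO2 it was higher in high light (38.3) than in low light (30.7). EXPA7 was too dim to be fitted. The root sum and the leaf sum were thus both lower in high than in low light, as were 4 of the members. The part of either sum in the members' values was not tested. In RNA from a whole tissue piece, fewer cells of a type and less RNA per cell cannot be told apart.

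Across light, 4 of the 5 measurable genes were lower in high light and 1, GLN1;1, was higher. In the fit over both CO2 levels all 5 differed at least 4-fold between high and low light, as did 0.835% of all probe sets fitted; in ambient CO2 alone NIA1 differed 3.91-fold. All 5 also passed, against 9% of all probe sets (1 member higher, against 4.18%, and 4 lower, against 4.82%). In each of the 5, both high-light signals lay outside both low-light signals, which was so for 54.2% of probe sets. Since these values took part in the choice of the genes, the counts show only what was chosen. The median high minus low difference of the 5 was -2.48 on the log2 scale, beside 0.03 for all probe sets fitted.

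**Figure D1:**
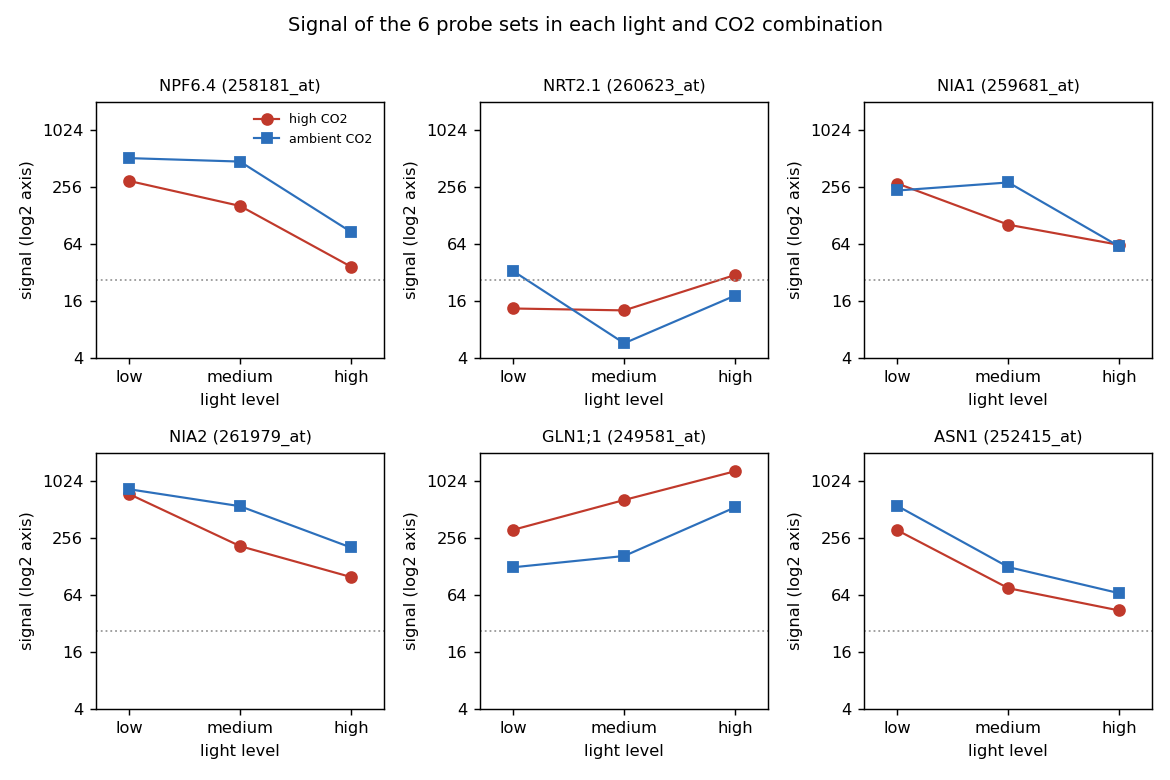
Signal (log2 axis) of the 6 probe sets at low, medium and high light, with 1 array per point; red circles are high CO2, blue squares ambient CO2, and the dotted line is the mean signal of 26.65 below which probe sets were not fitted. GLN1;1 climbs to 1308.2 in high light with high CO2, NPF6.4, NIA2 and ASN1 decline at both CO2 levels, and NRT2.1 stays between 5.7 and 33.

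The nitrate transporters come first in the pathway. NPF6.4, a member of the NRT1/PTR family of nitrate and peptide transporters, had signals of 297.8 (low light), 162 (medium) and 36.9 (high) in high CO2, against 519.4, 477.6 and 86.2 in ambient CO2. Its signals were lower in high CO2 at every light level and lowest in high light. Averaged over CO2, the high minus low light difference of log2 signal was -2.80 ± 0.19 (SE), 6.97-fold lower in high light. The upper step was the larger: the high minus medium difference was -2.30 ± 0.19 and the medium minus low difference -0.50 ± 0.19. The lower step was -0.88 in high CO2 and -0.12 in ambient CO2, and the fitted value ran from -0.79 without the low-light ambient-CO2 array to -0.20 when its high-CO2 counterpart was dropped. The 2 highest signals, in low and in medium light with ambient CO2, lay 0.12 log2 units apart, within the moderated SD of the gene (0.19). All other neighbours in the order of levels lay further apart than that SD.

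The CO2 difference of NPF6.4 was largest at medium light. On the log2 scale, high minus ambient CO2 was -0.80 at low, -1.56 at medium and -1.22 at high light, and -1.20 ± 0.16 in the fit. High CO2 therefore had 0.339 times the ambient signal at medium light and 0.573 times at low light. NPF6.4 did not pass for CO2 with all arrays. With a robust prior, without both high-light arrays, and without any 1 of the high-light or low-light arrays it did. Dropping 1 array takes its light level out of the CO2 difference. The value was thus -1.18 in every high-light setting and -1.39 in every low-light setting, and these are not separate results.

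NRT2.1, the high-affinity nitrate transporter best known from the root, had signals of 13.3 (low light), 12.7 (medium) and 30.1 (high) in high CO2, against 33, 5.7 and 18.2 in ambient CO2. These values follow neither light nor CO2, and 4 of the 6 lie under 26.65. The probe set was not fitted, and no change is read from it. Root markers were also low on these arrays: PYK10 had 31.3, 24.6 and 18.1 in high CO2 and 63.7, 29.9 and 22.5 in ambient CO2. Their part in the NRT2.1 signal was not tested.

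The nitrate reductases NIA1 and NIA2 catalyse the same step, and NIA2 is known for most of the activity in Arabidopsis. NIA2 had 749.2, 210.9 and 99.3 at low, medium and high light in high CO2, against 843.1, 557.8 and 204 in ambient CO2. It declined with each light step at both CO2 levels. The high minus low difference was -2.48 ± 0.26 on the log2 scale (5.58-fold lower in high light), made up of -1.21 ± 0.26 from low to medium and -1.27 ± 0.26 from medium to high light. The medium-light signal in high CO2 and the high-light signal in ambient CO2 were 210.9 and 204. They lay within the moderated SD of 0.26 of each other, and so did the 2 low-light signals.

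NIA1 had 279.5, 102.5 and 62.7 at low, medium and high light in high CO2, against 236, 287.1 and 60.4 in ambient CO2. The signals split into 3 high ones and 2 low ones from high light, with medium light in high CO2 between them. Each of the 3 high ones lay within the moderated SD of 0.37 of the next one among them. The high minus low difference was -2.06 ± 0.37 on the log2 scale, 4.17-fold lower in high light. NIA1 lost its call without the low-light high-CO2 array, where the difference was -1.58, and with a robust prior.

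**Figure D2:**
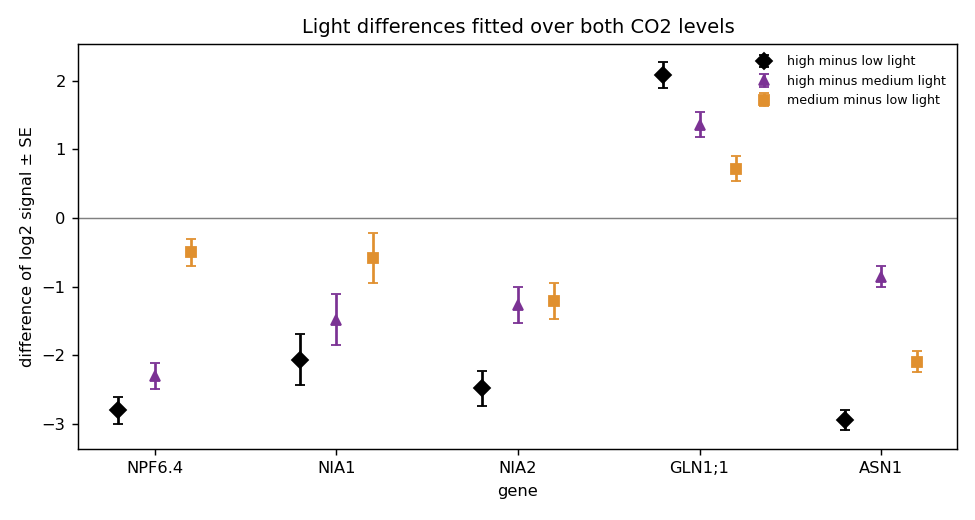
Differences of log2 signal between light levels, fitted over both CO2 levels, for the 5 genes above the filter; diamonds are high minus low, triangles high minus medium and squares medium minus low light, and bars are ± 1 SE of the fit. In NPF6.4 the upper step is the larger (-2.30 against -0.50), and in ASN1 the lower step (-0.85 against -2.09).

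The CO2 differences of both reductases were widest at medium light. High minus ambient CO2 was -0.17, -1.40 and -1.04 on the log2 scale for NIA2 at low, medium and high light, and 0.24, -1.49 and 0.05 for NIA1. At medium light NIA1 thus had 0.357 times and NIA2 0.378 times the ambient signal. In low light high CO2 and ambient CO2 gave close signals for both genes, and in high light they did so for NIA1. The fitted CO2 difference was -0.87 ± 0.21 for NIA2 and -0.40 ± 0.30 for NIA1, and neither passed. The sign for NIA1 rested on the medium-light pair: without the medium-light ambient-CO2 array the difference was 0.15.

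GLN1;1 encodes a cytosolic glutamine synthetase, the class of isoform known for ammonium recycling and transport rather than for assimilation in the chloroplast. It had 313.9, 649 and 1308.2 at low, medium and high light in high CO2, against 125.9, 165.7 and 542 in ambient CO2. Every step up in light and every step up in CO2 went with a higher signal, and the extremes lay 10.4-fold apart. All neighbours in the order of its 6 levels differed by more than the moderated SD of 0.19. The nearest 2, 649 and 542, lay 0.26 apart. That SD is for 1 array and a difference of 2 arrays spreads wider, so the order of these 2 is not settled. High minus low light was 2.08 ± 0.19 on the log2 scale (4.24-fold), with 0.72 ± 0.19 from low to medium and 1.36 ± 0.19 from medium to high light. With the atmosphere entry in place of the title the light difference was 2.9, and without a CO2 term it did not pass.

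High minus ambient CO2 for GLN1;1 was 1.32, 1.97 and 1.27 on the log2 scale at low, medium and high light, and 1.52 ± 0.15 in the fit, 2.87-fold higher in high CO2. Its probe set was 1 of the 8 that passed for CO2 over the whole array, 7 of them higher in high CO2. So 1 of 5 members passed as higher and 0 as lower, against 0.0586% of all probe sets (0.0513% higher and 0.00733% lower), in a comparison that took part in the choice. The call held in 12 of 16 alternatives and ended without the expression filter, without an intensity trend in the spread, with light as a score and with the atmosphere entry.

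ASN1, also known as the dark-induced gene DIN6, encodes the asparagine synthetase that darkness and sugar shortage are known to induce. It had 309.6, 75.6 and 43.9 at low, medium and high light in high CO2, against 560.5, 126.5 and 66.9 in ambient CO2. The decline was steepest between low and medium light, -2.09 ± 0.15 on the log2 scale, beside -0.85 ± 0.15 between medium and high light. High minus low light was -2.94 ± 0.15, 7.69-fold lower in high light. All neighbours in the order of its levels differed by more than the moderated SD of 0.15. The nearest 2, 75.6 and 66.9, lay 0.18 apart. That SD is for 1 array and a difference of 2 arrays spreads wider, so the order of these 2 is not settled.

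High CO2 went with a lower ASN1 signal at every light level, by nearly the same ratio. High minus ambient CO2 was -0.86, -0.74 and -0.61 on the log2 scale at low, medium and high light, a span of 0.25, the narrowest of the 5 genes. The fitted difference was -0.74 ± 0.12, 0.601 times the ambient signal, and it did not pass with all arrays. It passed without both high-light arrays and without either of them. Each of these settings takes the high-light pair out of the CO2 difference and gave the same value, -0.80, so they count as 1 result.

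**Figure D3:**
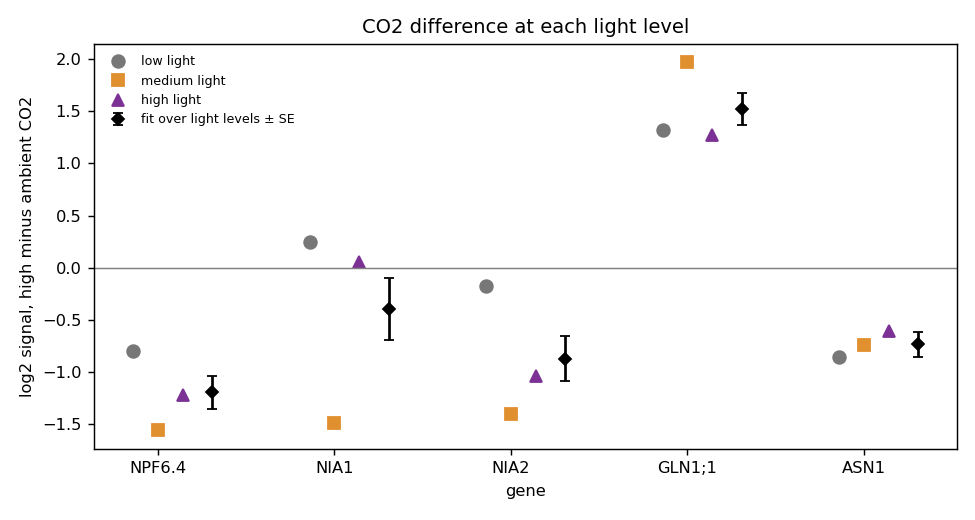
High minus ambient CO2 difference of log2 signal for the 5 genes above the filter; grey circles are low, orange squares medium and purple triangles high light (1 pair of arrays each), and black diamonds are the fitted difference ± 1 SE. GLN1;1 lies above 0 at 1.27 to 1.97, ASN1 spans 0.25, and NIA1 lies near 0 except at medium light.

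Between CO2 levels, 4 of the 5 genes kept 1 sign at all 3 light levels (NPF6.4, NIA2 and ASN1 lower, GLN1;1 higher in high CO2), which 29.8% of all probe sets did. The median fitted CO2 difference of the 5 was -0.74 on the log2 scale, beside 0.01 for all probe sets fitted. The same number, 4 of 5, kept 1 order from low through medium to high light at both CO2 levels, against 13.7% of all probe sets; NIA1 was the exception, with 287.1 at medium and 236 at low light in ambient CO2. In medium minus low light 2 of 5 passed, NIA2 and ASN1, both lower, against 4.54% of all probe sets (2.37% higher and 2.16% lower). ASN1 passed in all 16 alternatives and NIA2 in 9. NIA2 did not pass without the filter, the intensity trend or the CO2 term, with a robust prior or the atmosphere entry, or when the medium-light (-0.81) or low-light (-0.69) array of high CO2 was dropped. In high minus medium light 2 of 5 passed, NPF6.4 lower and GLN1;1 higher, against 0.953% (0.52% higher and 0.432% lower). NPF6.4 passed in 12 of 15 alternatives and GLN1;1 in 10. Neither passed without the intensity trend, without the CO2 term or when the medium-light ambient-CO2 array was dropped (-2.03 and 1.02), and GLN1;1 did not pass without the filter or with the atmosphere entry (2.18). All of these comparisons took part in the choice of the genes.

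A further fit, with a product of CO2 and a light score, measured how the gap between CO2 levels shifts per light step. Over the whole array 0 probe sets passed in limma, with 226 at an unadjusted p under 0.05. The product term, which is the change of the CO2 difference per light step on the log2 scale, was -0.43 ± 0.25 for NIA2, -0.21 ± 0.46 for NPF6.4, -0.10 ± 0.46 for NIA1, -0.02 ± 0.27 for GLN1;1 and 0.12 ± 0.33 for ASN1. The CO2 difference was widest at medium light in NPF6.4, NIA1 and NIA2, and also in GLN1;1 (1.97), where it had the opposite sign. Such a shape is not a trend along the order, and a score of this kind does not measure it. In each of these genes the shape rests on the same pair of medium-light arrays. The share of all probe sets widest at medium light was not counted.

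The levels of the members can be likened over the 6 arrays, as a description in which all pairs share the same arrays. Pearson correlations of log2 signal were 0.95 for NPF6.4 with NIA2, 0.93 for NIA1 with NIA2 and 0.93 for NIA2 with ASN1. GLN1;1 ran opposite to them, at -0.95 with NPF6.4 and -0.93 with NIA2. NIA2 and ASN1 had the same order of all 6 arrays. NRT2.1 had correlations between -0.43 and 0.28 with the other members, at signals too dim to read.

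Other genes of the pathway came from 5 lists of nitrate transport, nitrate and nitrite reduction, ammonium transport, ammonium assimilation and nitrogen regulators, with 75 genes in all. The probe annotation pairs 7 of them with a probe set and 5 were bright enough to be tested. It covers 14016 of the 22810 probe sets, so listed genes without a pairing can still be on the array. In high minus low light 3 of these 5 passed as lower, against 4.82% of all probe sets, and 0 as higher, against 4.18%. The lists, like the members, were chosen with earlier results of these data known. These counts are therefore a description and no independent test of the pathway. For CO2 none of the 5 passed, at adjusted p between 0.394 and 0.857 in limma, and none passed in any alternative run.

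The second transporter among them, NPF6.2 (AT2G26690), known for nitrate storage in the leaf petiole, fell with light. It had 301.5, 140.6 and 102.4 at low, medium and high light in high CO2 and 325, 197.4 and 89.9 in ambient CO2. High minus low light was -1.71 ± 0.18 on the log2 scale (limma adjusted p = 0.00297), lower in high light at both CO2 levels and past the threshold in every one of the 15 alternatives. The medium minus low fall of -0.91 ± 0.18 (adjusted p = 0.0382) was lost in 7 alternatives, with adjusted p between 0.0506 under quantile normalization and 0.192 when the array of low light in high CO2 was left out. High minus ambient CO2 was -0.14 ± 0.15 (adjusted p = 0.857), where NPF6.4 had -1.20 ± 0.16; the difference between both genes was not tested.

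Of the nitrogen regulators, 2 loci that the gene table leaves unnamed, AT1G68670 and AT1G25550 (HHO2 and HHO3 in the list used here), were tested. HHO2 had 185, 100.1 and 51.9 at low, medium and high light in high CO2 and 203.2, 164.1 and 103.2 in ambient CO2. It fell by 1.41 ± 0.21 on the log2 scale between high and low light (limma adjusted p = 0.0085). HHO3 had 194.1, 105.3 and 68.6 in high CO2 and 162.2, 128.3 and 105.5 in ambient CO2, and fell by 1.06 ± 0.22 (adjusted p = 0.0241). Both declined with each light step at both CO2 levels.

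These calls leaned on single arrays. Without the low-light high-CO2 array HHO2 was at -1.05 with adjusted p = 0.0724 and HHO3 at -0.70 with adjusted p = 0.206 in limma. HHO3 also missed the threshold without the filter (0.0571), without the intensity trend (0.0586) and with the atmosphere entry (0.0627), and HHO2 without a CO2 term (0.0539). For CO2 the fitted difference was -0.61 ± 0.18 for HHO2 (adjusted p = 0.394) and -0.22 ± 0.18 for HHO3 (adjusted p = 0.79). The list's AT3G25790 (HHO1) lay between 1.4 and 8.1, under the filter.

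**Figure D4:**
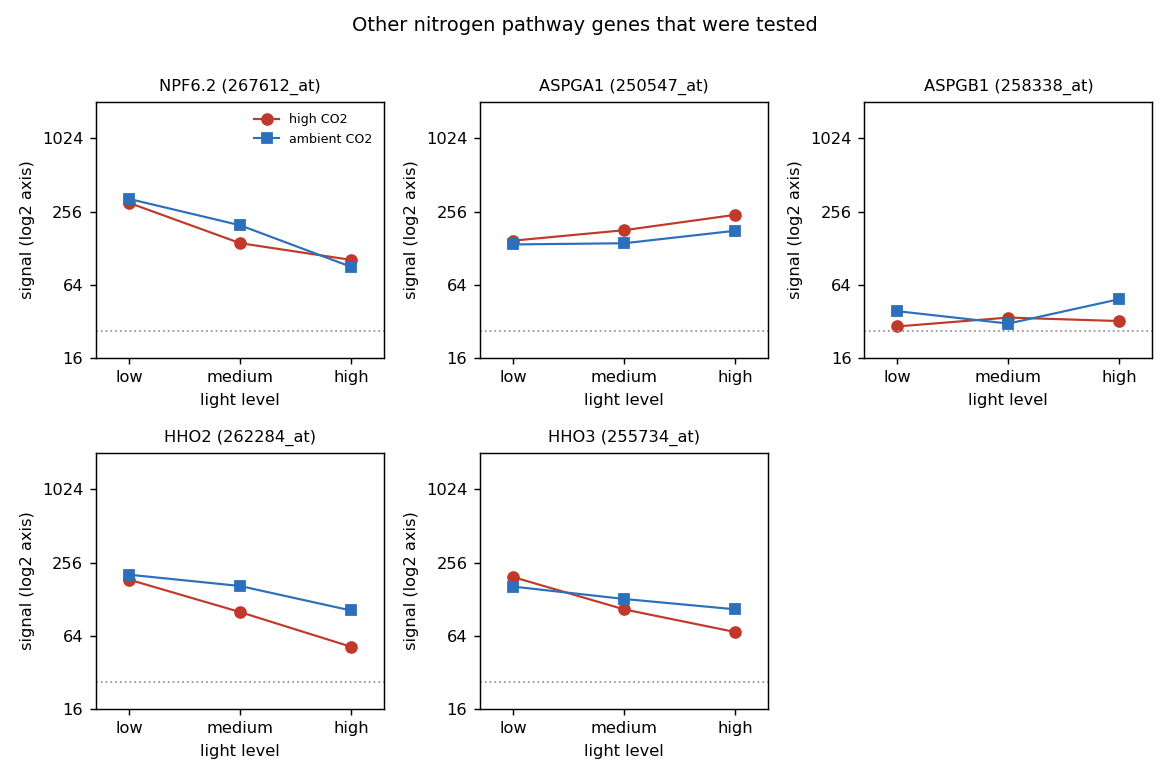
Signal (log2 axis) at low, medium and high light of the 5 further nitrogen pathway genes that were tested, 1 array per point; red circles are high CO2, blue squares ambient CO2, and the dotted line is the filter at 26.65. NPF6.2, HHO2 and HHO3 decline with light at both CO2 levels, while the asparaginases ASPGA1 and ASPGB1 did not pass.

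The asparaginases release ammonium from asparagine, the reverse direction to ASN1 in asparagine turnover. ASPGA1 had 147.4, 179.7 and 240.4 at low, medium and high light in high CO2 and 137.2, 140.3 and 177.8 in ambient CO2. Its high minus low difference of 0.54 ± 0.15 (limma adjusted p = 0.0694) did not pass. ASPGB1 lay between 29 and 48.6, with 0.24 ± 0.27 for light (adjusted p = 0.643). NRT2.5, a nitrate transporter known from starved plants, lay under the filter with signals between 15.5 and 36.2.

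The NRT1/PTR family has 10 further members with a probe set under this annotation, NPF6.2 among them, and 7 were tested. NPF6.2 was the 1 of these 7 that passed in high minus low light with all arrays, against 9% of all probe sets. GTR1 and GTR2, which carry glucosinolates, had -0.07 ± 0.18 and 0.51 ± 0.17 on the log2 scale. NPF4.4 had -0.96 ± 0.26 (limma adjusted p = 0.0635), at signals under 26.65 on 4 arrays. NPF3.1 had 0.77 ± 0.31 (adjusted p = 0.179), with 49.8, 92 and 143 at low, medium and high light in high CO2 and 80.3, 89.9 and 81 in ambient CO2, and passed at 1.34 without the high-light ambient-CO2 array. NPF4.3 and NPF4.5 had -0.34 ± 0.23 and 0.38 ± 0.27.

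ASN1 is also a marker of darkness and sugar shortage, so a list of genes drawn up for that response was read beside it. Whether each gene on the list, EXO among them, responds to darkness or sugar shortage was not tested. The annotation pairs 4 of the 14 listed genes with a probe set, and all 4 were fitted. MCCA, an enzyme of leucine breakdown, had a high minus low difference of -0.61 ± 0.18 on the log2 scale (limma adjusted p = 0.0822). IVD, of the same pathway, had 0.00 ± 0.26 and BZIP53, a bZIP transcription factor known to act on ASN1, -0.05 ± 0.20. EXO rose by 2.77 ± 0.69 (adjusted p = 0.0469), with 69, 136.2 and 148.9 at low, medium and high light in high CO2 and 73.9, 161.8 and 1594.5 in ambient CO2, and did not pass in 8 of 15 alternatives. Its difference was 1.15 without the high-light ambient-CO2 array and 4.39 when its high-CO2 counterpart was dropped. Of 10 clock genes the annotation pairs 1 with a probe set, GI. It had 368.5, 398.3 and 502.6 at low, medium and high light in high CO2 and 260.8, 188.3 and 485.2 in ambient CO2. Its light difference of 0.67 ± 0.22 did not pass (adjusted p = 0.107), and the part of harvest time in the members' values was not tested.

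For each tested member, the 3 named genes with the most similar pattern were found among 7415 candidates, by the root mean square distance of mean-centred log2 signals over the 6 arrays. For GLN1;1 these were AT5G55450 at 0.19, AT5G18470 at 0.31 and AT5G59670 at 0.43. AT5G55450 had 318.3, 710.8 and 1286.7 at low, medium and high light in high CO2 and 159.1, 239.1 and 619.9 in ambient CO2. For NPF6.4 they were AT1G13650 (0.43), AT5G48490 (0.47) and AT1G62660 (0.50). For ASN1 they were AT4G38690 (0.29), AT4G17245 (0.41) and AT5G56100 (0.47).

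The reductases shared a neighbour. AT4G33666 was the nearest to NIA1 (0.20) and to NIA2 (0.32), with 491.6, 181.1 and 112.7 at low, medium and high light in high CO2 and 566.6, 433.3 and 115.1 in ambient CO2. The others were AT5G22390 (0.30) and AT2G29290 (0.31) for NIA1, and SFP1 (0.33) and AT4G17245 (0.33) for NIA2. With 6 points and this many candidates some gene can lie near any pattern.

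**Figure D5:**
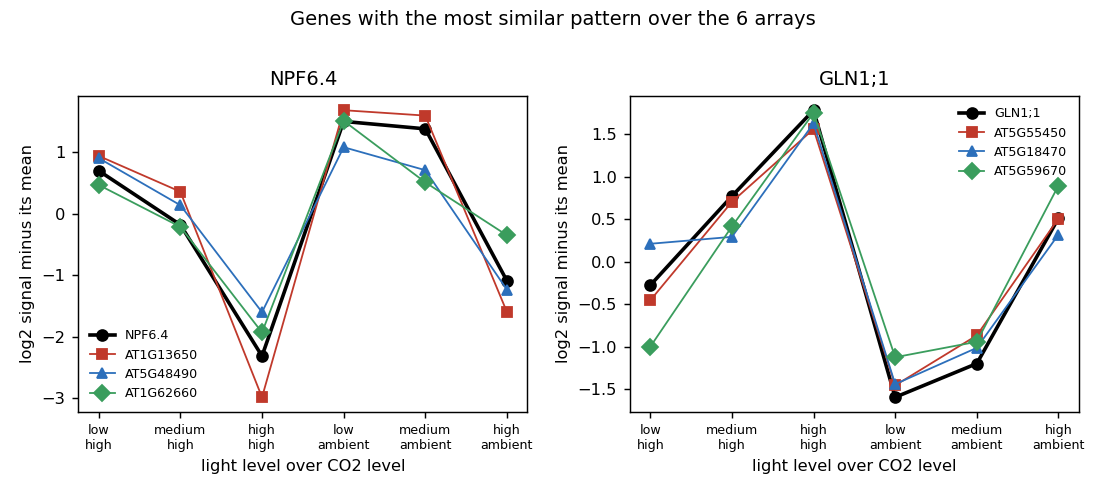
Mean-centred log2 signal over the 6 arrays for NPF6.4 (left) and GLN1;1 (right), in black, with the 3 named genes nearest to each in colour; the light level stands over the CO2 level on the horizontal axis. AT5G55450 follows GLN1;1 at a root mean square distance of 0.19.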

How the data were processed

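Total RNA was labelled with biotin and hybridised to 6 ATH1 arrays, 1 per combination of light and CO2. The authors deposited 1 intensity per probe set and array, linear and scaled to a common trimmed mean; the submitters' processing notes name MAS5, with no version in the sources used here. Dim signals scatter widely after logs.

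Log2 was taken after a floor of 0.1. Without the 64 controls, the top 60% by mean log2 signal, 13648, were fitted in R 4.3.3 with limma 3.58.1 (lmFit, and eBayes with an intensity trend, mean prior degrees of freedom 5.76), with CO2 and light as a factor. Benjamini-Hochberg adjustment ran over all fitted probe sets. The fit was also run on simulated data with independent errors and no interaction of light and CO2. That run cannot show how 1 array per combination bears on the calls, and no result here rests on it. The labels name no separate cultures. With 1 array per combination the residual holds array-to-array spread, which may be technical, together with any change of the CO2 difference between light levels.

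The members and the gene lists were chosen with earlier results of these data known. Named are the members, the list genes with a single-gene probe set, and the 3 nearest patterns per member; gene-specific probe sets came first, then the brighter. The NRT1/PTR family, urease (URE) and GAT1_2.1 were added by name after the annotation was read. URE had a light difference of 0.27 ± 0.28 and GAT1_2.1 signals between 2.5 and 13.1. Of 13513 single-gene probe sets 7416 were fitted. Python 3.11.15 drew the figures. Alternatives were other scalings, filters, priors, pseudocount and model terms, the atmosphere entry, and fits without single arrays.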

Additional observations from a re-analysis of the deposited data

Results flagged for a closer look

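NRT2.1 is singled out because its CO2 difference had opposite signs at different light levels, each of at least 1 log2 unit. High minus ambient CO2 was -1.31 at low light and 1.16 at medium light on the log2 scale, and 0.73 at high light. The difference between light levels was not tested, and the signals are too dim for these values or their signs to be read as changes. Of the 4 signals behind these first 2 values (13.3 and 12.7 in high CO2, 33 and 5.7 in ambient CO2), 1 lay above the filter at 26.65.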

How the results depend on the processing

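Replicate numbers in the labels are all the same and give no further pairing. The fitted CO2 difference already sets arrays of the same light level against each other. All 5 high minus low light differences of the members kept their sign in all 15 alternatives, ranging with 1 array left out from -3.10 to -2.51 for NPF6.4, -2.54 to -1.58 for NIA1, -3.01 to -1.96 for NIA2, -3.04 to -2.85 for ASN1 and 1.9 to 2.27 for GLN1;1. With the atmosphere entry NPF6.4 was -3.39. The CO2 difference kept its sign in all 16 alternatives for NPF6.4, NIA2, ASN1 and GLN1;1 and in 14 for NIA1 (-0.72 to 0.15 with 1 array left out). Several alternatives could not change these estimates. Other filters, a robust prior and no intensity trend left both differences as they were. So did no CO2 term or a dropped medium-light array for high minus low light, and light as a score for CO2. Sign agreement in those settings was fixed in advance. For CO2, dropping either array of a light level gave the same value, so such pairs of settings are not separate checks. The medium minus low difference of NIA1 was 0.24 without the medium-light high-CO2 array. The product term changed sign with 1 array left out, from -1.36 to 1.17 for NIA1 and from -1.39 to 0.96 for NPF6.4. It did so too for GLN1;1 (-0.68 to 0.63) and ASN1 (-0.50 to 0.75), while NIA2 kept its sign (-0.86 to -0.01). The cause of these changes was not tested beyond the loss of an array, and dim signals limit NRT2.1. The alternative scalings moved the median of all probe sets by less than 0.1.

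Counts of probe sets past the threshold in limma moved as follows. For CO2 (8) the count was 5 with quantile normalization or the top 40% filter, 153 without both high-light arrays, and 0 without the filter, without the trend, with the atmosphere entry or with light as a score, where 1576, 1125, 903 and 656 had an unadjusted p under 0.05. With 1 array left out it ran from 8 to 144, with 144 and 141 when the high-CO2 or the ambient-CO2 array of high light was dropped. For high minus low light (1228) it was 737 without the filter, 726 without the trend and 806 without a CO2 term, and from 301 (without the low-light high-CO2 array) to 1636 with 1 array left out. For medium minus low (619) it was 119 without the filter, 17 without the trend, 368 with the atmosphere entry, 343 without a CO2 term, 1683 without both high-light arrays, and from 14 (low light in high CO2 dropped) to 1630 (high light in ambient CO2 dropped) with 1 array left out. For high minus medium (130) it was 9, 1, 232 and 0 (1947 at an unadjusted p under 0.05) for no filter, no trend, the atmosphere entry and no CO2 term, and from 4 (medium light in ambient CO2 dropped) to 852 (high light in high CO2 dropped) with 1 array left out. For the CO2 difference along the light order it was 0, and from 0 to 30 with 1 array left out (30 with low light in ambient CO2 dropped).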
